A study of Mus musculus with 13 samples.

Results

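Collagen genes of the mouse colorectum were taken from the array by their symbols, as every gene named Col, a number, the letter a and a number. This gave 41 of the 36163 gene names on the array, covered by 63 probes. A probe was kept where the scanner software marked it well above background on 2 or more of the 13 arrays, the brightest kept probe stood for its gene, and 37 collagens passed, among 25384 genes tested. Fibrillar collagens supplied 10 of 11 members (Col11a1 did not pass), basement membrane collagens 9 of 9, and the other collagens 18 of 21 (Col19a1, Col28a1 and Col6a6 did not pass). No probe of these 4 genes was well above background on any array, so their levels are not described. All 41 symbols are current in RefSeq, and no collagen probe was saturated.

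All samples came from CDX2P-NLS Cre;Apc+/loxP mice, in which a Cre recombinase driven by the Cdx2 promoter deletes 1 Apc allele and colorectal tumors arise spontaneously. Treated mice received miR-200c, miR-302a to miR-302d and both strands of miR-369 on super carbonate apatite particles, by tail vein, in 24 injections at 3 a week from 8 weeks of age, at 25 µg of each microRNA. Control mice are marked NC in the labels, which describe a negative control microRNA, and were taken to have had the same schedule. At sacrifice the colorectum was separated into normal and tumorous parts, giving 2 normal and 2 tumor arrays from microRNA mice and 2 normal and 7 tumor arrays from control mice. Because normal tissue comes from mice of the same genotype and injections as the tumors, it is not tissue of untreated or wild-type mice. No label ties a sample to an animal, so each p-value reflects spread among samples, and several tumors may share a mouse.

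Collagens are secreted as triple helices of 3 chains, which may be copies of the same chain or products of different genes. Fibrillar collagens form the load-bearing fibrils of the gut wall, made largely by fibroblasts and smooth muscle. Basement membrane collagens form sheets beneath epithelium and around vessels and muscle cells, and the other families decorate fibrils, form beaded filaments or networks, or span the cell membrane.

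Tumors held more RNA of most fibrillar collagens and of the type IV chains Col4a1 and Col4a2 than normal tissue did, and less of Col4a5 and Col4a6. A level here is the log2 processed signal minus the log2 of the 75th percentile of the array, so 0 is that percentile. A difference between tumor and normal tissue over both groups of mice, adjusted for treatment, was called where limma's Benjamini-Hochberg adjusted p over all genes was under 0.05. Of the 37 collagens, 15 were called higher and 5 lower (Col4a4, Col4a5, Col4a6, Col8a2 and Col13a1), against 11.7% of all tested genes called higher, 19.8% called lower and 31.5% called in either direction. None of the 5 lower calls held without control normal 2, which left 12 higher and 0 lower where 5.58% and 9.26% of all genes were called, nor with the replicate block (13 and 0, at 4.32% and 6.87%). The median difference was 0.77 for the collagens and -0.11 for all genes. Tumor and normal arrays did not overlap for 11 collagens that were higher and 1 that was lower, where 6.72% and 10.7% of all genes did so.

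Members that passed because they were bright on tumors alone had to be higher there. Col22a1, Col9a3, Col24a1, Col2a1, Col10a1 and Col9a1 were well above background on tumors alone, and Col13a1 on normal tissue alone. The calls and p-values given below for these genes are therefore not read as support for a difference. Among the 30 collagens above background on some array of each tissue, 12 were called higher and 4 lower, with a median of 0.32. The split depended on the scaling of the arrays, with 16 higher and 2 lower after quantile normalization (15.8% and 14.9% of all genes), 11 and 10 with normexp background correction (10.4% and 37.4%), and 24 and 0 without scaling (57.4% and 2.73%). In either direction, 56.8% of the collagens and 47.9% of all genes were called with normexp correction, and 64.9% and 60.1% without scaling, where the median of all genes stood at 0.89.

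**Figure D1:**
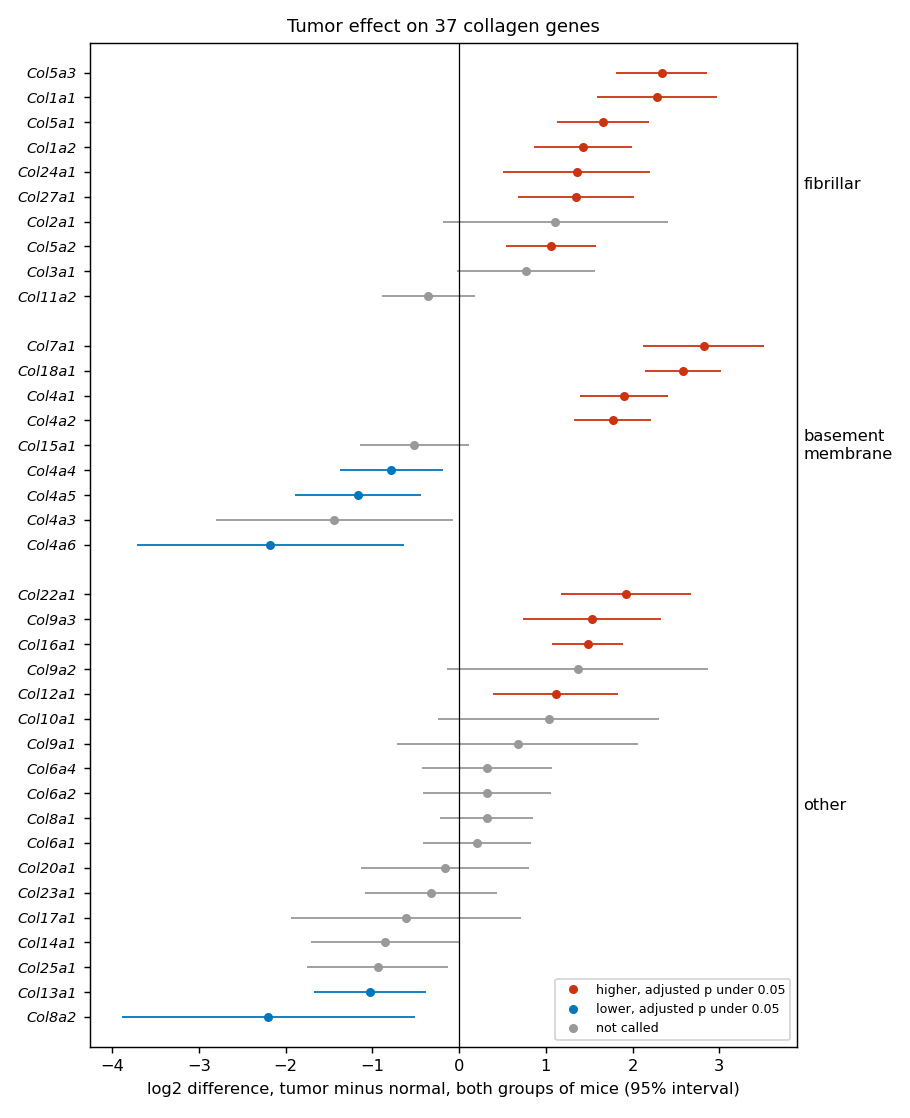
Differences between tumor and normal tissue for the 37 collagens, on the log2 scale with 95% intervals, over both groups of mice (9 tumors, 4 normal arrays) and ordered within each family. Fibrillar members lie mostly to the right of 0, from Col5a3 at 2.33 to Col11a2 at -0.35, while the basement membrane members split into 4 called higher and 3 called lower.

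The share of probes well above background lay between 50.7% and 57.0%. Signals were brighter on tumors, whose 75th percentiles lay at 363 to 644, than on normal arrays, at 185 to 272. The arrays lay on 2 slides. Both control normal arrays were on slide 2, and of the 7 control tumors only tumor 3 was on slide 2. The tumor effect in control mice is thus largely tied to the slide. All 10 epithelial markers were above background in each group, and 7 were called lower in tumors. For this and the other marker counts over both groups of mice, 11.7% of all genes were called higher and 19.8% lower. Smooth muscle markers were called lower in tumors in 13 of 13 members, adipocyte markers in 8 of 8 and skeletal muscle markers in 8 of 9. These counts were 12, 6 and 8 in control mice, where 11.7% of all genes were called lower. In microRNA mice they were 0, 4 and 1, at 1.62% of all genes. The smooth muscle medians were -3.20 in control mice and -1.33 in microRNA mice. Fibroblast markers other than collagens had 2 of 13 members called higher and a median of 0.03. That median was -0.44 in control mice (2 higher, 2 lower) and 0.75 in microRNA mice (1 higher, 0 lower). Over both groups, endothelial markers had 1 higher and 1 lower of 10, and leukocyte markers had 2 and 2 of 8, beside 11.7% and 19.8%. Enteric neuron and glia markers were called lower in 6 of 10 members (median -1.21), with summed levels of 25.2 and 52.2 in control normal tissue, 20.0 to 35.7 in microRNA normal tissue, 9.78 to 28.8 in control tumors and 15.9 to 20.5 in microRNA tumors. Control normal arrays also held more squamous epithelium signal (summed linear level 23.3 and 55.0, in units of the 75th percentile) than microRNA normal arrays (10.8 and 13.1). In tissue RNA of this kind, fewer cells of a type and less RNA per cell cannot be told apart, and the part of these cell types in the collagen differences was not tested.

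Type I collagen, the main fibril former of connective tissue, was higher in tumors in both of its chains. Col1a1 (NM_007742, probe at chr11:94813115-94813174 on mm9) stood at 3.01 and 3.39 in control normal tissue and at 2.60 and 2.61 in microRNA normal tissue. Its levels in the 7 control tumors ran from 4.22 through a median of 5.47 to 5.87, and the microRNA tumors were at 4.82 and 5.67. Every tumor thus lay above every normal array. Normal tissue averaged 2.90 ± 0.37 (SD, n = 4) and tumors 5.25 ± 0.58 (SD, n = 9), and Col1a1 rose by 2.28 on the log2 scale (SE 0.32, limma adjusted p = 0.000796). Col1a2, which encodes the partner chain (NM_007743, chr6:4490619-4490678), was at 4.96 and 5.20 in control normal tissue and 4.52 and 4.89 in microRNA normal tissue. It ran from 5.75 through 6.10 to 7.03 in control tumors and was at 6.24 and 6.80 in microRNA tumors. The groups again did not overlap, and Col1a2 rose by 1.42 (SE 0.26, limma adjusted p = 0.00294).

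Col3a1, the type III collagen that shares fibrils with type I in the gut wall, did not pass. It was at 4.86 and 4.84 in control normal tissue and from 4.42 through 5.04 to 6.09 in control tumors (NM_009930, chr1:45405589-45405648). In microRNA mice it was at 4.57 and 3.38 in normal tissue and at 5.63 and 5.60 in tumors. Control tumors lay on both sides of their normal tissue, whereas both microRNA tumors lay above theirs. The difference over both groups was 0.77 (95% interval -0.02 to 1.57, limma adjusted p = 0.123).

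All 3 type V chains, which help to start fibrils and set their width, were called higher. Col5a3 (NM_016919, chr9:20574592-20574651) was at -0.48 and -0.36 in control normal tissue, from 1.24 through 1.89 to 2.50 in control tumors, at -0.82 and -0.63 in microRNA normal tissue, and at 1.34 and 1.99 in microRNA tumors. The tissues stood far apart, and Col5a3 rose by 2.33 (SE 0.24, limma adjusted p = 0.000126). Col5a1 (NM_015734, chr2:27892892-27892951) was at 0.21 and 0.72 in control normal tissue, from 1.40 through 2.11 to 2.39 in control tumors, at -0.15 and 0.37 in microRNA normal tissue, and at 1.82 and 2.32 in microRNA tumors. It rose by 1.66 (SE 0.25, limma adjusted p = 0.00106) with no overlap. Col5a2, whose lowest tumor lay just above its highest normal array (-1.23), rose by 1.06 (SE 0.24, limma adjusted p = 0.00735).

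Of the minor fibrillar collagens, Col27a1 rose by 1.35 (SE 0.31, limma adjusted p = 0.00796), a call that ended with normexp correction (0.21). Col24a1 was not well above background on any normal array and was at least 2.52-fold higher in tumors (limma adjusted p = 0.0214). Col2a1, the main cartilage collagen, was above background on 3 control tumors and no normal array. By group means it was at least 2.12-fold higher, did not pass (limma adjusted p = 0.171), and turned to -0.35 with normexp correction. Col11a2, another cartilage collagen, differed by -0.35 (-0.89 to 0.18). Fibrillar members as a class had 7 of 10 called higher and 0 lower, beside 11.7% and 19.8% of all genes. Their median of 1.35 was 0.73 with normexp correction (5 higher, 1 lower) and from 1.50 to 2.35 under the other 3 scalings. Col24a1, counted among the 7, passed the filter through tumors alone. Slide 1 alone holds 1 normal array, too few to read calls from. There the 7 called members were higher in tumors by 0.82 to 2.78 as plain means. Within slide 2 alone the calls of Col5a1 (1.38) and Col5a2 (1.24) ended. The call of Col24a1 ended without either control normal array, microRNA normal 1 or microRNA tumor 2, at 1.16 to 1.46, and its value turned to -0.37 with normexp correction.

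**Figure D2:**
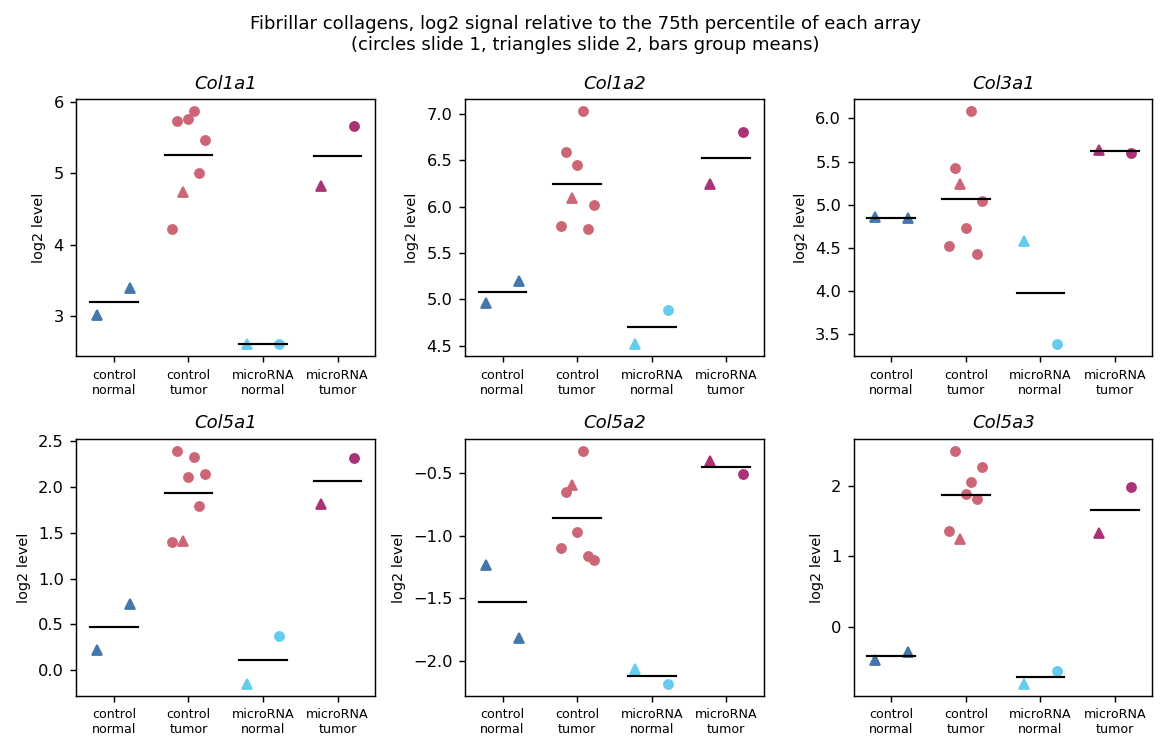
Log2 levels of 6 fibrillar collagens on each of the 13 arrays, by group, with circles for slide 1, triangles for slide 2 and bars for group means. Col1a1, Col1a2 and the 3 type V chains separate tumors from normal tissue, while control tumors of Col3a1 spread from 4.42 to 6.09 around the normal level of 4.86 and 4.84.

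The stretches upstream of 3 fibrillar genes are shown because Col1a2 and Col5a1 moved with the tumor and Col3a1 did not pass. Each is the 250 bases before the RefSeq start on GRCm38.p6, written on the plus strand of the genome, on which all 3 genes lie, with capitals for the motifs searched for. These were CCAAT and GGGCGG on either strand and TATAAA on the strand of the gene, and no motif overlaps another here.
Col1a2, chr6:4505368-4505617: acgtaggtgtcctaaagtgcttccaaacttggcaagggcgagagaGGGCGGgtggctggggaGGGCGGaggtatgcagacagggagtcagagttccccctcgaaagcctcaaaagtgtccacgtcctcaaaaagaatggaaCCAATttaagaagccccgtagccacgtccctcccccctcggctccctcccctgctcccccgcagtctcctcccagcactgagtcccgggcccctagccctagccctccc
Col5a1, chr2:27886175-27886424: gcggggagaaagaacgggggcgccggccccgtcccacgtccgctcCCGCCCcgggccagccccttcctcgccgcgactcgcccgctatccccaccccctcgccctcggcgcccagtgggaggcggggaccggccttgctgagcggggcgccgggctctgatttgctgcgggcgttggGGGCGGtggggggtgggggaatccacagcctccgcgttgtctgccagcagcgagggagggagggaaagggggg
Col3a1, chr1:45311288-45311537: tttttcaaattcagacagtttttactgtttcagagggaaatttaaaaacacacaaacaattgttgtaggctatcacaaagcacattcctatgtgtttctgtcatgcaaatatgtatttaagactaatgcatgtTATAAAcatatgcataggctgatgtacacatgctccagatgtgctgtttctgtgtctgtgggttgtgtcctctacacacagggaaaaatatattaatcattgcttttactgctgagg

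Col1a2 carried GGGCGG beginning 205 and 188 bases upstream of its start and CCAAT beginning 109 bases upstream. Col5a1 carried GGGCGG at 205 bases upstream on the minus strand and at 73 bases on the plus strand. Col3a1 held TATAAA at 117 bases upstream. CCAAT occurred in 33.85% of 32851 windows of this length in the reference table and in 12 of the 29 collagens with a window, GGGCGG in 32.74% and 18 of 29, and TATAAA in 7.59% and 5 of 29. The percentages count windows, whereas a collagen counts where any of its windows holds the motif, so they are not directly comparable. Of the 10 collagens called higher that had a window, 7 held CCAAT, 8 held GGGCGG and 0 held TATAAA. A match of these letters is not a measured binding site.

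Type IV collagen, the sheet-forming collagen of all basement membranes, split by chain. Col4a1 and Col4a2, which pair in most basement membranes, were both higher in tumors. Col4a1 (NM_009931, chr8:11199009-11199068) was at 1.72 and 1.75 in control normal tissue, from 2.55 through 3.49 to 3.97 in control tumors, at 1.03 and 1.13 in microRNA normal tissue, and at 3.35 and 3.37 in microRNA tumors. Col4a2 (NM_009932, chr8:11448840-11448899) was at 1.50 and 1.65 in control normal tissue, from 2.75 through 3.30 to 3.62 in control tumors, at 0.86 and 1.52 in microRNA normal tissue, and at 2.98 and 3.36 in microRNA tumors. For both genes every tumor lay above every normal array. Col4a1 rose by 1.90 (SE 0.23, limma adjusted p = 0.000343) and Col4a2 by 1.77 (SE 0.21, limma adjusted p = 0.000243).

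Their RefSeq starts on GRCm38.p6 lie 21 bases apart on chromosome 8, that of Col4a1 (minus strand) at 11312826 and that of Col4a2 (plus strand) at 11312805. The transcripts run in opposite directions and overlap at their 5′ ends by that stretch.

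Col4a5 and Col4a6, which lie head to head on chromosome X with RefSeq starts 1343 bases apart, moved the other way. Their products combine with each other in the basement membrane of smooth muscle, and Col4a5 also joins Col4a3 and Col4a4. Col4a5 (NM_001163155, chrX:138123547-138123606) was at -0.73 and -0.59 in control normal tissue, from -2.68 through -2.28 to -1.26 in control tumors, at -1.18 and -1.24 in microRNA normal tissue, and at -2.81 and -1.40 in microRNA tumors. Every tumor lay below every normal array, the closest pair being -1.26 and -1.24, and Col4a5 fell by 1.16 on the log2 scale (SE 0.34, limma adjusted p = 0.021). Col4a6 (NM_053185, chrX:137599990-137600049) was at -1.14 and -0.73 in control normal tissue, from -5.07 through -3.93 to -1.21 in control tumors, at -1.73 and -0.91 in microRNA normal tissue, and at -4.57 and -2.41 in microRNA tumors. Control tumors 1 and 2, at -1.21 and -1.57, overlapped normal tissue, and Col4a6 fell by 2.18 on the log2 scale (SE 0.71, limma adjusted p = 0.0349).

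A second probe of Col4a6 differed far less between tumor and normal tissue (-0.38, against -2.07 for the probe used, as plain group means). The probe used was well above background on 5 of 7 control tumors and 1 of 2 microRNA tumors, the second probe on all 13 arrays. Summed smooth muscle signal, over 13 markers, was 1238 and 902 in control normal arrays, 508 and 546 in microRNA normal arrays, 288 and 262 in microRNA tumors, and between 50.1 and 304 in control tumors. Its highest control tumors were 2 (304) and 1 (216), those in which Col4a6 was highest, and its lowest was tumor 6 (50.1), in which Col4a6 was lowest. Tumor 5, next highest for Col4a6 at -2.06, had a smooth muscle signal of 110, below that of tumor 3 (130), where Col4a6 was at -3.93. The part of smooth muscle in these differences was not tested. Col4a5 was not called without control normal 1 (-1.13) or control normal 2 (-1.07). The call of Col4a6 ended without either control normal array, either microRNA normal array, microRNA tumor 1, or control tumor 4 or 7, at values of -2.30 to -1.86.

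Col4a4 (NM_007735, chr1:82447879-82447938) was at -3.69 and -3.36 in control normal tissue, from -4.42 through -3.93 to -3.49 in control tumors, at -2.75 and -3.08 in microRNA normal tissue, and at -4.86 and -3.73 in microRNA tumors. Its control groups overlapped, and it fell by 0.78 on the log2 scale (SE 0.27, limma adjusted p = 0.0466). That call ended in 17 of 27 alternative fits, and the value turned to 0.22 without scaling between arrays. Leaving out 1 array ended it for control normal 2, either microRNA normal array, either microRNA tumor, or control tumor 3, 4, 5 or 6, with values of -0.86 to -0.52. Col4a3, its head-to-head neighbor, differed by -1.44 (95% interval -2.81 to -0.07, limma adjusted p = 0.0986) and was above background on 3 normal and 2 tumor arrays.

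Col18a1, the collagen whose C-terminal fragment is endostatin, separated the tissues most clearly of all collagens by its adjusted p. It was at 1.60 and 1.69 in control normal tissue, from 4.17 through 4.41 to 4.67 in control tumors, at 1.66 and 1.83 in microRNA normal tissue, and at 3.51 and 4.55 in microRNA tumors (NM_001109991, chr10:76514926-76514985). The 4 normal arrays lay close together and far below every tumor, and Col18a1 rose by 2.58 (SE 0.20, limma adjusted p = 3.18e-05), with 2.48 on its second probe as plain group means. Col7a1, which forms the fibrils that anchor basement membranes to the tissue below, was at -1.64 and -2.25 in control normal tissue, from 0.79 through 1.17 to 1.65 in control tumors, at -1.89 and -0.28 in microRNA normal tissue, and at 0.76 and 1.83 in microRNA tumors (NM_007738, chr9:108886861-108886920). MicroRNA normal 2 stood above the other normal arrays but below every tumor, and Col7a1 rose by 2.82 (SE 0.32, limma adjusted p = 0.000239). Col15a1, a relative of Col18a1 in muscle and vessel basement membranes, differed by -0.51 (95% interval -1.14 to 0.11). Basement membrane members as a class had 4 of 9 called higher and 3 lower, beside 11.7% and 19.8% of all genes. Their median of -0.51 turned to 0.48 without scaling between arrays.

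**Figure D3:**
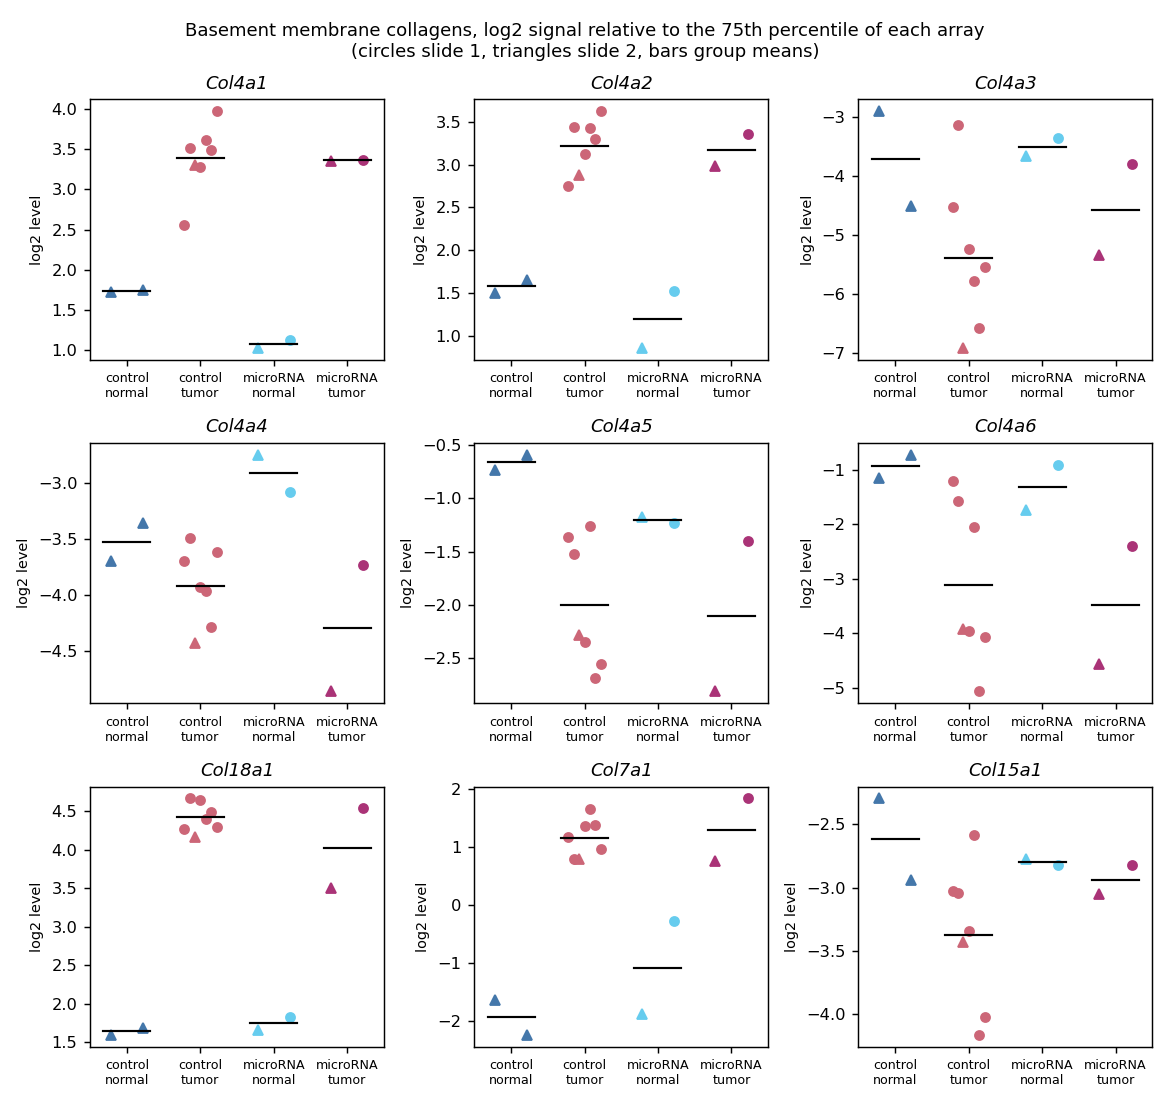
Log2 levels of the 9 basement membrane collagens on each array, by group, with circles for slide 1, triangles for slide 2 and bars for group means. Tumors lie above normal tissue for Col4a1, Col4a2, Col18a1 and Col7a1 and mostly below it for Col4a3 to Col4a6, where Col4a6 in control tumors spreads from -5.07 to -1.21.

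Fibril-associated collagens sit on the surface of fibrils and link them to other matrix. Of the 8 measured, 4 were called higher and 0 lower, beside 11.7% and 19.8% of all genes. Col22a1 and Col9a3, counted among the 4, passed the filter through tumors alone and had to be higher there. Col16a1 (NM_028266, chr4:129776333-129776392) was at 2.83 and 2.51 in control normal tissue, from 3.58 through 3.92 to 4.41 in control tumors, at 2.22 and 2.44 in microRNA normal tissue, and at 4.16 and 4.11 in microRNA tumors. Tumors did not overlap normal tissue, and Col16a1 rose by 1.48 (SE 0.19, limma adjusted p = 0.000441). A second probe gave 1.52 and another, lying upstream of both on the plus strand, 0.35, as plain group means.

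Col22a1, known from tissue junctions such as that of muscle and tendon, was not well above background on any normal array and was so on all 9 tumors. Its levels were -3.93 and -4.72 in control normal tissue, -3.44 through -2.58 to -1.56 in control tumors, -5.29 and -5.12 in microRNA normal tissue, and -3.84 and -2.36 in microRNA tumors (NM_027174, chr15:71628906-71628965). Col22a1 was at least 4.34-fold higher in tumors by group means (limma adjusted p = 0.00269), without overlap, but the call ended with normexp correction (0.13). Col9a3, a chain of the cartilage collagen type IX, was above background on 3 tumors and no normal array. It was at -5.73 and -6.14 in control normal tissue, from -5.17 through -4.08 to -3.33 in control tumors, at -5.77 and -5.01 in microRNA normal tissue, and at -3.71 and -4.92 in microRNA tumors (NM_009936, chr2:180356123-180356182). Col9a3 was at least 2.37-fold higher (limma adjusted p = 0.00965), with overlap, and turned to -0.30 with normexp correction, and its call ended without control normal 2 (1.33).

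The partner chain Col9a2 spread widely among control tumors, from -2.10 to 1.70, against -0.68 and -1.92 in control normal tissue, and its difference of 1.37 did not pass (95% interval -0.13 to 2.87). Chondrocyte markers, of which 4 of 7 were measured, had 1 called higher and 1 lower, beside 11.7% and 19.8% of all genes. Matn3 and Cnmd (Lect1 in the files) were not above background in any group. Col12a1, which coats type I fibrils, rose by 1.11 (SE 0.33, limma adjusted p = 0.0245), a call that ended without control normal 2 (1.21) or microRNA tumor 1 (0.88). Col14a1, its close relative, differed by -0.85 (-1.71 to 0.01, limma adjusted p = 0.118). Col20a1 differed by -0.16 (-1.13 to 0.80). Col9a1, above background on 6 tumors and no normal array, was at least 1.54-fold higher by group means and did not pass (limma adjusted p = 0.438). With normexp correction Col9a1 turned to -0.40.

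Type VI collagen, which forms beaded filaments around cells, had 3 measured chains and none passed; at an unadjusted p under 0.05 there was also none. Col6a1 (NM_009933, chr10:76171538-76171597) was at 3.43 and 3.80 in control normal tissue, from 3.33 through 3.74 to 4.48 in control tumors, at 3.25 and 3.40 in microRNA normal tissue, and at 2.80 and 4.26 in microRNA tumors. Col6a2 (NM_146007, chr10:76058931-76058990) was at 0.81 and 1.14 in control normal tissue, from 0.66 through 1.26 to 2.08 in control tumors, at 0.50 and 0.66 in microRNA normal tissue, and at 0.01 and 1.74 in microRNA tumors. Tumors lay on both sides of normal tissue for both genes. The differences were 0.21 for Col6a1 (95% interval -0.41 to 0.83), 0.32 for Col6a2 (-0.42 to 1.06) and 0.32 for Col6a4 (-0.43 to 1.07). Both Col6a1 and Col6a2 turned negative with the slide as a block (-0.08 and -0.05) and within slide 2 alone (-0.35 and -0.39).

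Among network collagens, which form open lattices, Col8a2 was the lower one in tumors. It was at -1.53 and -1.87 in control normal tissue, from -6.66 through -4.89 to -3.14 in control tumors, at -3.38 and -2.63 in microRNA normal tissue, and at -3.37 and -3.74 in microRNA tumors (NM_199473, chr4:125991441-125991500). Control tumors lay below control normal tissue, whereas the microRNA groups overlapped, and Col8a2 fell by 2.20 on the log2 scale (SE 0.78, limma adjusted p = 0.0477). Its probe was well above background on only 3 of 7 control tumors, though on all other arrays, so the size of the fall rests on levels near background. The call ended in 18 of 27 alternative fits, among them those without control normal 1 (-1.74), control normal 2 (-1.90), microRNA normal 2 (-2.34), microRNA tumor 2 (-2.39) or control tumor 1, 4, 6 or 7 (-2.18 to -2.01). Its partner Col8a1 differed by 0.32 (95% interval -0.22 to 0.86) and did not pass. Col10a1, the growth plate collagen, was above background on 2 tumors and no normal array. By group means it was at least 1.55-fold higher, did not pass (limma adjusted p = 0.192), and turned to -0.43 with normexp correction.

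Transmembrane collagens, which sit in the cell membrane, had 1 of 4 members called lower and 0 higher, where 19.8% and 11.7% of all genes were so called. Col13a1, known from muscle and nerve contacts, was above background on both control normal arrays and on no other array. It was at -3.25 and -3.09 there, from -5.57 through -4.40 to -4.24 in control tumors, at -3.79 and -4.19 in microRNA normal tissue, and at -4.49 and -4.15 in microRNA tumors (NM_007731, a probe listed at chr10:61330216-61330585). Col13a1 was at least 1.99-fold lower in tumors (limma adjusted p = 0.0224), a call that ended without control normal 1 (-0.905) or control normal 2 (-0.83). The value was 0.03 within slide 1, which holds no control normal array. Skeletal muscle markers, summed, were at 11.1 and 19.4 on the control normal arrays and between 2.4 and 5.8 on all the others, and their part in the level of Col13a1 was not tested.

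Col17a1, a component of the junctions that fix squamous epithelium to its basement membrane, was at -2.83 and -4.05 in control normal tissue and at -5.70 and -5.78 in microRNA normal tissue. Its difference over both groups was -0.61 (95% interval -1.94 to 0.71), and squamous markers were likewise higher on the control normal arrays, as given above. Col25a1 and Col23a1, known mostly from the nervous system and from epithelium, differed by -0.94 (-1.75 to -0.13, limma adjusted p = 0.0724) and -0.32 (-1.09 to 0.44). The other collagens as a class had 4 of 18 called higher and 2 lower, beside 11.7% and 19.8% of all genes. Their median of 0.32 turned to -0.34 with normexp correction. Of the genes counted here, Col22a1 and Col9a3 passed the filter through tumors alone and Col13a1 through normal tissue alone.

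**Figure D4:**
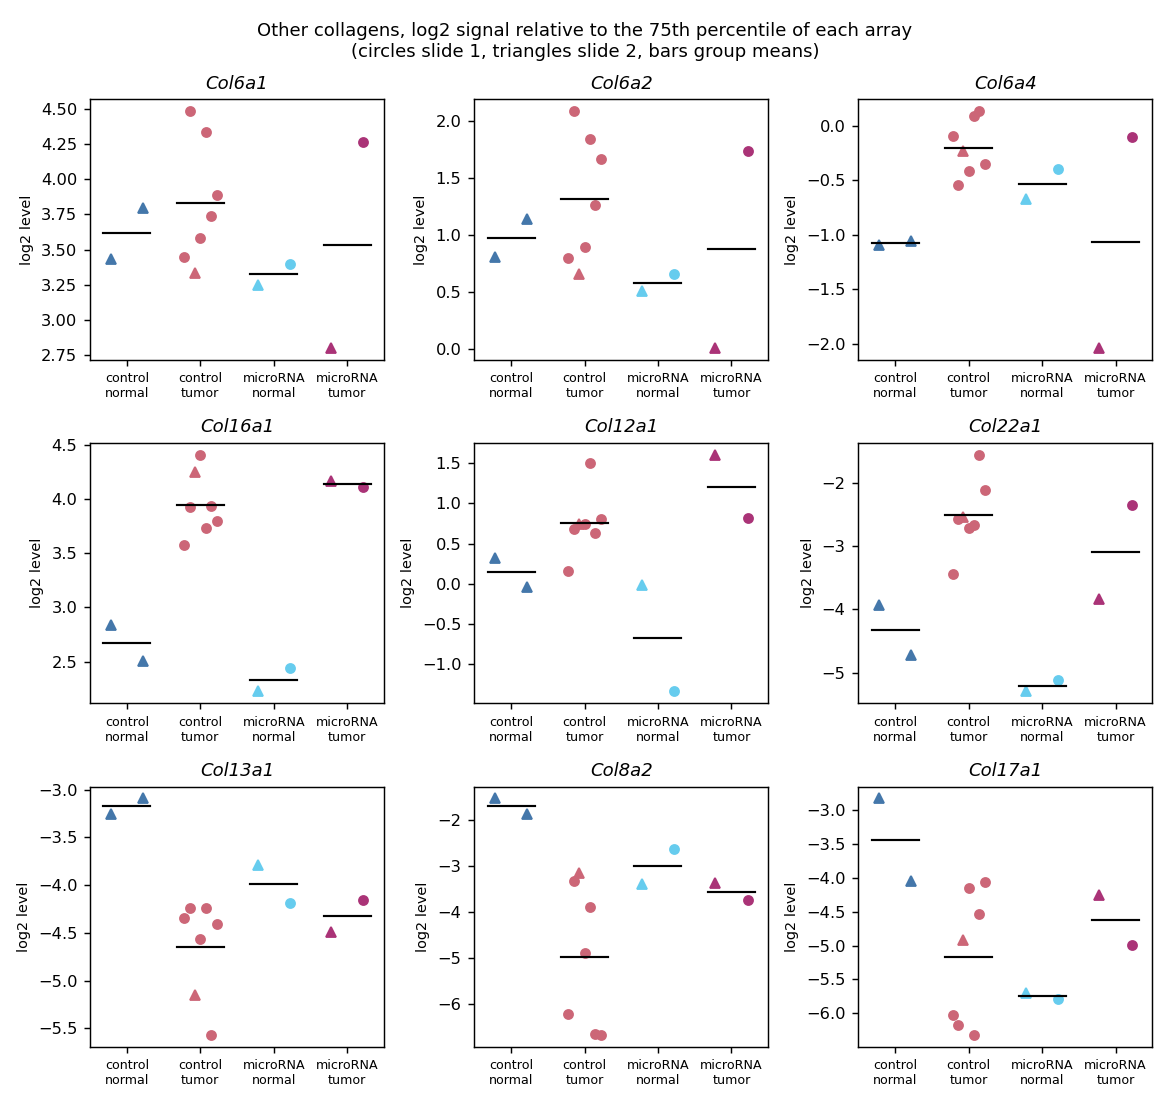
Log2 levels of 9 collagens outside the fibrillar and basement membrane families on each array, by group, with circles for slide 1, triangles for slide 2 and bars for group means. Tumors lie above normal tissue for Col16a1 and Col22a1, the type VI chains overlap, and Col13a1, Col8a2 and Col17a1 are highest in control normal tissue.

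Whether partner chains or neighboring genes moved by the same amount was tested on the difference between their levels within each array, with a two-sided exact permutation test of 9 tumors against 4 normal arrays and p-values adjusted over the 9 pairs computed. The smallest p this design allows is 0.0028. The pairs among Col1a1, Col1a2 and Col3a1, and that of Col4a1 with Col4a5, were added to the planned pairs of adjacent genes. These added pairs were compared on the same arrays that gave the calls above, so their p-values are description only. Col1a1 rose more than Col1a2, by 0.93 log2 units (exact permutation p = 0.0028, adjusted p = 0.0126), with no overlap between tumors (-1.57 to -0.55) and normal arrays (-2.27 to -1.81). The shift was 1.32 within slide 1 and 0.50 within slide 2. Col1a1 also rose more than Col3a1, by 1.57 (exact permutation p = 0.0056, adjusted p = 0.0168), at 1.04 and 1.10 within the slides. Col1a2 and Col3a1 differed in their change by 0.64 (exact permutation adjusted p = 0.0957), which was -0.28 within slide 1 and 0.60 within slide 2.

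Col4a1 and Col4a5 had been called in opposite directions, so the outcome of their test was fixed beforehand and its p is not read. That p still counts among the 9 in the adjustment, which lowers the adjusted p-values of the pairs with Col1a1 given above. The difference in level between Col4a1 and Col4a5 spanned 2.21 to 2.45 log2 units on normal arrays and 3.92 to 6.52 on tumors. Head-to-head Col4a1 and Col4a2 differed in their change by 0.15 (exact permutation adjusted p = 0.294), Col4a5 and Col4a6 by 0.99 (adjusted p = 0.0957 in the same exact test), and Col4a3 and Col4a4 by -0.82 (exact permutation adjusted p = 0.245). Neighbors Col3a1 and Col5a2 differed by -0.28 (exact permutation adjusted p = 0.264), and Col6a1 and Col6a2 by -0.15 (exact permutation adjusted p = 0.172). A p that misses the threshold does not show that the members of a pair moved alike.

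Enzymes and partners of collagen were read from 6 lists in the same fit. Of 20 measured genes for folding and modifying collagen chains, 6 were called higher and 0 lower (median 0.19), among them the chaperone Fkbp10 (1.14), the lysyl hydroxylase Plod3 (0.95), the prolyl hydroxylase subunit P4ha2 (1.09) and the galactosyltransferase Colgalt1 (0.78). The collagen chaperone Serpinh1 differed by 0.44 (limma adjusted p = 0.191). Of 13 genes for trimming and cross-linking procollagen, 7 were called higher and 2 lower (median 0.88). The cross-linking oxidase Loxl2 rose by 2.13, the procollagen C-proteinase Bmp1 by 1.94 and Pxdn, which cross-links type IV collagen, by 1.40. Lox was not above background on any normal array and was called higher (limma adjusted p = 0.00068). It passed the filter through tumors alone and had to be higher there, so its call, counted among the 7, is not support.

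Proteins that bind fibrils had 5 of 16 members called higher and 0 lower (median -0.12), with fibronectin Fn1 at 1.97, Thbs1 at 1.34, Sparc at 1.14 and Thbs2 at 2.85, whereas the small proteoglycan Dcn differed by 0.75 (limma adjusted p = 0.101). Basement membrane components other than collagens had 11 of 20 called higher and 1 lower (median 0.91). The laminin chains Lama1 (3.84), Lama3 (2.37) and Lamb1 (1.10) and the matricellular gene Smoc2 (2.21) rose, and the laminin chain Lamc3 fell by 2.31 on the log2 scale. Collagen-degrading proteases and their inhibitors had 7 of 12 called higher and 0 lower (median 1.55), with the collagenase Mmp13 at 5.47, the gelatinases Mmp9 at 4.16 and Mmp2 at 1.68, and the inhibitor Timp1 at 3.67. Collagen receptors had 2 of 11 called higher and 1 lower (median 0.41), namely Adgrg1 (0.88) and Mrc2 (0.51), and the platelet receptor Gp6 (-1.16). These counts stand beside 11.7% of all genes called higher and 19.8% called lower.

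In control mice alone, 12 collagens were called higher in tumors and 2 lower, against 7.97% and 11.7% of all genes, or 19.7% in either direction. Col18a1 rose by 2.78 (SE 0.25, limma adjusted p = 8.53e-05), Col5a3 by 2.30, Col16a1 by 1.27, Col4a2 by 1.64, Col4a1 by 1.65, Col1a1 by 2.06 and Col1a2 by 1.17. Col13a1, at least 2.77-fold lower, and Col8a2 (-3.26) were the 2 lower calls. With the slide as a block, the calls of Col1a1, Col1a2, Col5a1, Col22a1, Col27a1 and Col8a2 ended. Tumors and normal tissue did not overlap for 15 higher and 7 lower members, where 13.9% and 19.7% of all genes did so. Only 2 control normal arrays carry this contrast: 3 collagens were called higher without control normal 1 and 4 without control normal 2, with Col1a1 at 1.87 and 2.25, and 7 were called higher with the slide as a block. Numbers in the file names, which the labels do not explain, are shared by control tumors 1 and 2, by control tumors 4 to 7, and by control normal 2 and control tumor 3. With that number as a random block (estimated correlation 0.31), Col1a2 (1.11, limma adjusted p = 0.0608) and Col8a2 were no longer called in control mice, and the other 12 were.

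In microRNA mice alone, 10 collagens were called higher and 0 lower, against 1.41% and 1.62% of all genes, or 3.03% in either direction. At an unadjusted p under 0.05 there were 15 higher and 1 lower. Col18a1 (2.28), Col4a1 (2.28), Col16a1 (1.81), Col5a3 (2.39), Col4a2 (1.98), Col5a2 (1.67), Col1a1 (2.64), Col5a1 (1.96), Col7a1 (2.38) and Col1a2 (1.82) rose. Of these, Col5a2 was not called in control mice (0.67), and the other 9 were. Non-overlap was seen for 20 higher and 7 lower members, at 21.1% and 31.9% of all genes. With 2 arrays on each side, the count fell to 2 without microRNA normal 1, 5 without microRNA normal 2, 1 without microRNA tumor 1 and 3 without microRNA tumor 2, and to 4 when only the microRNA arrays entered the fit.

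**Figure D5:**
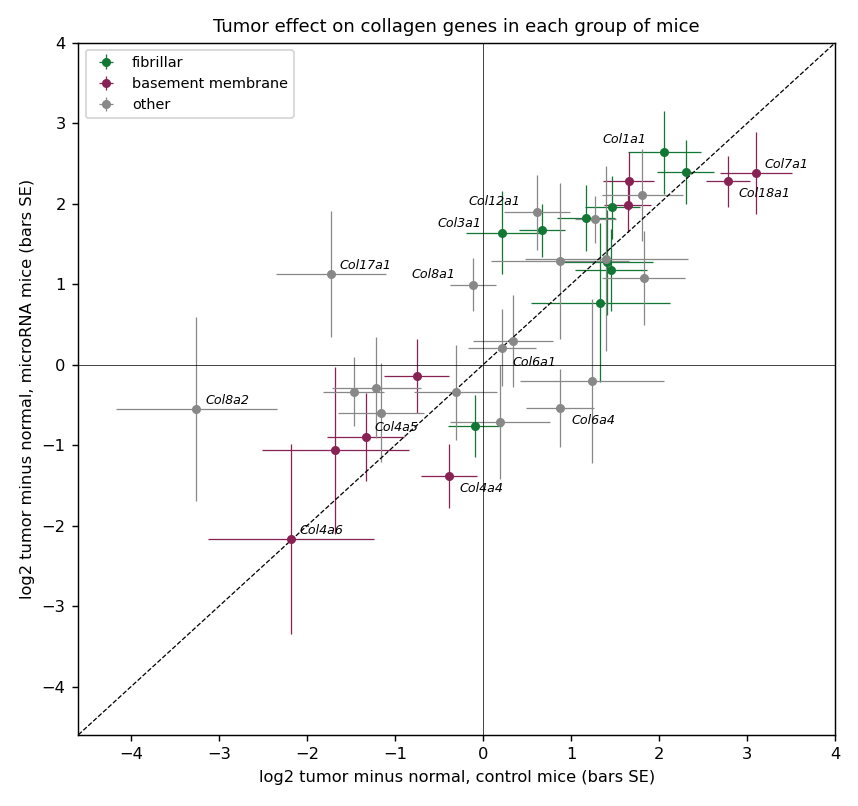
Log2 difference between tumor and normal tissue for each collagen in control mice (7 tumors, 2 normal arrays) and in microRNA mice (2 and 2), with bars of 1 standard error and a dashed line of equal values. Col18a1, Col7a1 and Col1a1 lie far to the upper right, while Col8a2, at -3.26 and -0.55, and Col17a1, whose probe was not above background in microRNA normal tissue, lie away from the line.

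The agents given to the microRNA mice are shown for their seeds, bases 2 to 8, which are in capitals. Sequences are RefSeq mature forms on the GRCm38.p6 table, the 3p strand is shown for miR-200c and the miR-302 members because the labels name no strand for them, and miR-302a-3p is named only.
mmu-miR-200c-3p: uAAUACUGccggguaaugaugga
mmu-miR-302b-3p: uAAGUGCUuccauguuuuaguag
mmu-miR-302d-3p: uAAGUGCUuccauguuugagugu
mmu-miR-302c-3p: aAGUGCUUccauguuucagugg
mmu-miR-369-3p: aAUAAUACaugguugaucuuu
mmu-miR-369-5p: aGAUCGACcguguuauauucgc

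No collagen was called between microRNA and control tumors, where 0.00394% of all genes were called, by limma over all genes (2 of 37 at an unadjusted p under 0.05). The median difference of the 37 was -0.02. Col8a1 had the smallest p, at -1.79 and -2.37 in microRNA tumors against -3.61 through -3.17 to -2.82 in control tumors, and its microRNA tumors lay above all control tumors. It was the only collagen without overlap here, where 1.48% of all genes were higher and 0.993% lower without overlap. Its difference was 1.12 (95% interval 0.54 to 1.69, limma adjusted p = 1). Col6a4 differed by -0.87 (-1.71 to -0.03), a value set by microRNA tumor 1 at -2.04, without which it was 0.10. For type I collagen, Col1a1 differed by -0.01 and Col1a2 by 0.28. Unadjusted 95% intervals reached from 0.51 to 2.07 log2 units on each side of a value. A call over all genes needs a larger difference than that, so differences beyond these widths, as for Col8a1, could also be missed with 2 treated tumors.

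Normal tissue of microRNA and control mice also gave no call among the collagens, where 0.536% of all genes were called, 0.284% higher and 0.252% lower (limma, 1 of 37 at an unadjusted p under 0.05). That gene was Col17a1, whose probe was above background on 1 of 2 control normal arrays and 0 of 2 microRNA normal arrays, at least 4.93-fold lower by group means (limma adjusted p = 0.581). The 2 arrays of each group did not overlap for 5 higher and 16 lower members, against 21.3% and 19% of all genes. Col1a1 differed by -0.59, Col3a1 by -0.87 and Col4a1 by -0.65, all without a call. Both control normal arrays were on slide 2, and the microRNA normal arrays were split between the slides.

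No collagen was called for a difference in tumor effect between the 2 groups of mice, where 0.292% of all genes were called, 0.118% higher and 0.173% lower (limma, 4 of 37 at an unadjusted p under 0.05). These were Col8a1 (1.10, 95% interval 0.19 to 2.02), Col5a2 (1.00, 0.08 to 1.91), Col6a4 (-1.41, -2.76 to -0.07) and Col17a1, for which no value is given because its probe was not above background on either microRNA normal array. A second Col6a4 probe, well above background on 8 arrays, rose by 0.85 in each group of mice as plain group means. The Col6a4 probe used gave 0.88 in control mice and -0.54 in microRNA mice, so its difference was not seen on the second probe. For Col3a1 the difference was 1.42 (-0.02 to 2.87), from 0.22 in control mice to 1.64 in microRNA mice. Unadjusted 95% intervals reached from 0.81 to 3.30 log2 units on each side. A call over all genes needs a larger difference, so differences beyond these widths could also be missed.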

How the data were processed

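RNA of 13 colorectal samples was measured, each on a Cy3-labelled array. Per the file headers, the authors read scans in Agilent's Feature Extraction software (10.7.3.1), which wrote the deposited processed signals: fluorescence intensity after background subtraction and detrending inside each array, with no step that makes arrays comparable. The series' value file repeated these deposited intensities. From these, log2 signals minus each array's log2 75th percentile were computed, control spots (3671) left out, and differences fitted with limma 3.58.1 (lmFit, eBayes) in R 4.3.3 on all 13 arrays and 25384 genes, with Benjamini-Hochberg adjusted p under 0.05. Gene pairs were tested with SciPy 1.17.1, and figures drawn with Python 3.11.15 and matplotlib 3.10.9. Members, families, lists and the rule for named genes (fixed chains plus the largest called changes in each family) were chosen with earlier results of these data known. Where a group was dim on every array, folds are given as lower bounds ("at least") from group means. The dim group entered at the higher of the probe's own level and the lowest level well above background on each array. The brighter group entered with every array at its measured level, also arrays not well above background. Such arrays occur for Col24a1, Col9a3, Col2a1, Col10a1, Col9a1 and Col17a1, and for Col13a1 over both groups of mice. For these genes the true fold may be smaller than the value given. These bounds are for group means of the processed signal, with no allowance for spread among arrays. They did not hold with normexp correction for Col22a1 (log2 difference 0.13), nor for Col24a1, Col9a3, Col2a1, Col10a1 and Col9a1, which turned negative. Probe positions are those of the files, on mm9; no mm9 annotation was used here. The fits were tested on simulated data. Replicate numbers were not treated as pairs, since not every same-numbered pair deviated together: correlations were 0.42 for microRNA normal against microRNA tumor, which also share slide and file name number, 0.33 for control tumor 2 against microRNA tumor 2, and between -0.19 and 0.034 for the others.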

Additional observations from a re-analysis of the deposited data

Results flagged for a closer look

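Among the 37 collagens, 2 had 1 control tumor far from the other 6. Col20a1 was at -3.80 in control tumor 3, with the nearest of the others at -2.35. Col25a1 was at -6.36 in control tumor 6, with the nearest at -4.91, and its probe was not well above background on any control tumor. Chance flags about 1 in 20 groups of values by this measure (the gap to the nearest sample over the whole range). Neither gene was called between tumor and normal tissue.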

How the results depend on the processing

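Of the 20 collagens called over both groups of mice, Col18a1, Col5a3, Col7a1, Col4a1, Col4a2, Col16a1 and Col1a1 kept the call in 26 of 27 alternative fits, all but the fit within slide 1. Against 15 higher and 5 lower, the lower count was 2 with quantile normalization (14.9% of all genes) and 3 with median scaling (11.7%). It was 9 without a filter on dim probes (28.2%), 10 with normexp correction (37.4%) and 2 within slide 2 (10%). Counts were 24 and 0 without scaling (57.4% and 2.73%). Without both control normal arrays they were 9 and 0 (1.06% and 1.17%). The lower count was 0 (10.1%) without control normal 2 and control tumor 3, which share a number in their file names. Both alternatives were chosen after seeing the data. Leaving out 1 array gave 12 to 15 higher and 0 to 6 lower, with 0 lower without control normal 2.

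In control mice, against 12 higher and 2 lower, counts were 22 and 0 without scaling and 6 and 0 without control normal 2 and control tumor 3. The lower count was 10 with normexp correction, and 1 with the control arrays alone or with the file name number as a random block. With the slide as a block, 7 were higher. Shares of all genes are not given for alternatives within 1 group of mice, so a change in count need not be particular to collagens. Leaving out 1 array gave 3 to 13 higher and 0 to 3 lower. In microRNA mice, against 10 higher and 0 lower, 4 were higher with the microRNA arrays alone and 0 within slide 1 or slide 2, and 1 was lower with normexp correction, without the filter, with the slide as a block or with the file name number as a random block. Leaving out 1 array gave 1 to 12 higher. The microRNA effects and the difference between tumor effects gave 0 collagens under every alternative run.

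Among the called collagens and the chains followed by name, values that turned sign over both groups were Col4a4 (0.22, no scaling), Col24a1 (-0.37) and Col9a3 (-0.30) with normexp correction, Col6a1 (-0.083) and Col6a2 (-0.046) with the slide as a block, Col6a1 (-0.35) and Col6a2 (-0.39) within slide 2, Col13a1 (0.033) within slide 1, and Col6a1 (-0.0072) without microRNA tumor 2, its values without 1 array running from there to 0.43. Col9a3 turned to -0.21 in control mice with normexp correction, and Col6a4 between tumors to 0.093 within slide 1 and 0.10 without microRNA tumor 1, against -1.83 without microRNA tumor 2. Over all 37 collagens, 8 turned positive without scaling (0.061 to 0.84; Col11a2, Col14a1, Col15a1, Col17a1, Col20a1, Col23a1 and Col25a1 beside Col4a4) and 6 turned negative with normexp correction (-0.43 to -0.22; Col10a1, Col2a1, Col8a1 and Col9a1 beside Col24a1 and Col9a3), against 0 with quantile or median scaling. The cause was not tested.

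With the replicate number as a block, a number that the labels do not tie to animals, 13 collagens were higher and 0 lower over both groups, and 2 and 1 in control mice. Dim collagens near background, such as Col9a3 and Col24a1, are limited by signal over background, and the tumor calls rest on 4 normal arrays.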
